A study of Mus musculus with 10 samples.

Results

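The genes described here are 10 feedback inhibitors of receptor tyrosine kinase and ERK signalling. They are the Sprouty genes *Spry1*, *Spry2* and *Spry4*, the Sprouty-related genes *Spred1* and *Spred2*, the dual-specificity phosphatase genes *Dusp1*, *Dusp4*, *Dusp5* and *Dusp6*, and *Errfi1*. They were picked by symbol, and all 10 were found among the 24421 rows of the count table. The list was drawn up because *Spry4* separated ethanol from saline in these same libraries. Its ethanol and saline values are therefore a description, with no test, and the values of the other 9 genes in that contrast are treated in the same way.

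RNA came from the pooled calf muscles (gastrocnemius with plantaris) of male C57BL/6 mice aged 12 weeks. All mice had been fasted for about 16 h. The ethanol group (mice 51, 57, 59, 60 and 62) had received 3 g/kg ethanol intraperitoneally, a single binge-like dose, and the saline group (mice 32, 34, 36, 38 and 39) an equal volume of saline. Muscle was taken 1 h after the injection, under isoflurane, and the mice stayed fasted until then.

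Growth factors such as FGF, EGF and VEGF bind receptor tyrosine kinases, which switch on RAS, then RAF and MEK, and finally the kinase ERK. ERK turns on genes whose products shut the same route down. Sprouty and SPRED proteins act between the receptor and RAF, dual-specificity phosphatases remove the activating phosphates of ERK and related kinases, and ERRFI1 (also called MIG6) blocks the EGF receptor kinase itself. Several of these transcripts are short-lived and respond within an hour, and *Dusp1* also answers to stress, cAMP and glucocorticoids. Muscle tissue holds fibres, endothelium, satellite cells and connective tissue cells. In such bulk RNA, fewer cells of a type and less RNA per cell cannot be told apart.

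RefSeq start-site windows (GRCm38) were matched for 8 of the genes, with *Errfi1* matched at 2 starts. The 250 bases before 4 starts are printed because they hold, or lack, response elements for signals that act on these genes within an hour. Capitals mark matches to the cAMP response element TGACGTCA (bound by CREB family factors), the E-box CACGTG (bound by CLOCK with BMAL1, among others) and the CArG box (bound by serum response factor). The windows are *Dusp1* at chr17:26508473-26508722 on the minus strand, *Errfi1* at chr4:150854820-150855069 on the plus strand, *Dusp5* at chr19:53528895-53529144 on the plus strand and *Dusp6* at chr10:99262981-99263230 on the plus strand.
Dusp1: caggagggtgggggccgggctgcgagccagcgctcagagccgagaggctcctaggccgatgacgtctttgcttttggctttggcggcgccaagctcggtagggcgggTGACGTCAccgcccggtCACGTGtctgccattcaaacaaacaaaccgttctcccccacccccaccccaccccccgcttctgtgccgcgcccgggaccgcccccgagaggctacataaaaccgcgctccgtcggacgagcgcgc
Errfi1: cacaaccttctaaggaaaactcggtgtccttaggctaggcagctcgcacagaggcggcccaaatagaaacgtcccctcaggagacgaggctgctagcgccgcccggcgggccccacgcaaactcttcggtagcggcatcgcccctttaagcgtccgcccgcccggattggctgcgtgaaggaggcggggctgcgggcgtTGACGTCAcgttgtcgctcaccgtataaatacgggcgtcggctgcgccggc
Dusp5: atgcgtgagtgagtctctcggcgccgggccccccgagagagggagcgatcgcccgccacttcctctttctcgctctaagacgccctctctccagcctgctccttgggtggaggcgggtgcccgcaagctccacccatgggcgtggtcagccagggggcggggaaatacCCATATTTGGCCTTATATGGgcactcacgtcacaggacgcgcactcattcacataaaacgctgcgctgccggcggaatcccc
Dusp6: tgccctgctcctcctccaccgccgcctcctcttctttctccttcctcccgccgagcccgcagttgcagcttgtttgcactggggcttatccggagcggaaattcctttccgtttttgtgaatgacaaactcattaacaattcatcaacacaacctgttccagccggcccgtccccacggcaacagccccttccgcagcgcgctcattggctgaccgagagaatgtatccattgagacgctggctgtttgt

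The TGACGTCA element stood in 2 of the 9 windows, those of *Dusp1* (at -143 to -136, counted back from the start) and *Errfi1* (at -51 to -44). It stood in 1.55% of the 32851 mouse windows of the same length. The *Dusp1* window also held CACGTG at -126 to -121, which 6.02% of all windows hold. *Dusp5* held a pair of CArG boxes that abut without overlap, at -82 to -73 and -72 to -63, and 1.47% of all windows hold at least 1. Both strands were searched. The AP-1 element TGANTCA (6.75% of all windows) and the ETS element CCGGAAGT (2.88%) matched none of the 9 windows, and no searched element matched the printed *Dusp6* window. Matches describe the letters only.

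Depth was 20.3 to 31.3 M counts per ethanol library and 32.0 to 42.7 M counts per saline library (exact permutation p = 0.00794, two-sided, the smallest that 5 against 5 allows). Every ethanol library was thus shallower than every saline library. Muscle fibre markers summed to 129669 to 155498 CPM (counts per M counts of the scaled library) in ethanol and 127666 to 152960.5 CPM in saline, with none of the 10 at 0, so the tissue fitted its label. Earlier results had set saline 36 apart for glucocorticoid target genes, saline 38 and saline 39 for heat shock genes and ethanol 60 for fat cell genes, and values without these libraries are given where they matter. By edgeR's quasi-likelihood test with Benjamini-Hochberg adjustment, 0 of 13180 tested genes (0%) passed a false discovery rate (FDR) of 0.05 between ethanol and saline, with 1599 at an unadjusted p under 0.05. DESeq2 called 55 of the 11745 genes to which it gave an adjusted p (0.468%), and limma-voom called 0. All 10 feedback genes passed the filter on low counts.

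Levels are CPM after TMM scaling unless stated otherwise. Of the 10 genes, 7 had a higher and 3 a lower fitted value in ethanol, where 50.2% of all tested genes were higher and 49.8% lower. On this scale 0 of the 10 separated the groups fully, against 1.36% of tested genes entirely higher and 0.819% entirely lower in ethanol. The median log2 fold change was 0.13 over the 10 genes and 0.000956 over all tested genes.

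**Figure D1:**
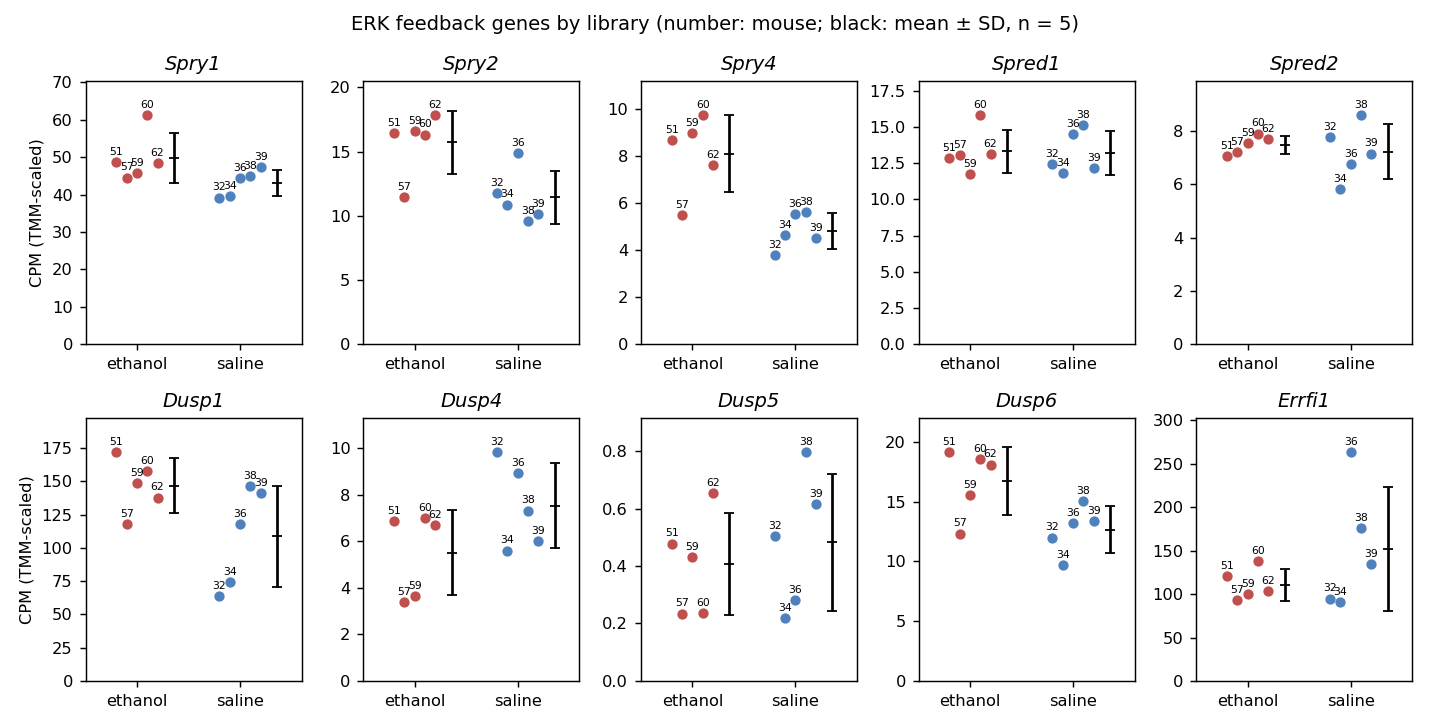
Level of each of the 10 feedback genes in CPM (y axis, from 0) in the 5 ethanol and 5 saline libraries; each point is 1 mouse with its number, and black bars are mean ± SD. *Spry4*, *Spry2* and *Dusp6* have 4 of 5 ethanol points above every saline point, with ethanol 57 the exception each time. The share of all tested genes with such an arrangement was not counted.

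*Spry4*, which inhibits VEGF and FGF signalling to ERK, was at 8.70, 5.50, 8.99, 9.74 and 7.62 CPM in ethanol 51, 57, 59, 60 and 62. It was at 3.80, 4.65, 5.55, 5.61 and 4.53 CPM in saline 32, 34, 36, 38 and 39. The groups overlapped through ethanol 57 alone, which lay below saline 36 and saline 38. The means were 8.11 ± 1.65 CPM in ethanol and 4.83 ± 0.76 CPM in saline (SD, n = 5 each), a 1.68-fold difference (log2 fold change 0.75 ± 0.16, SE). These are low levels, resting on a mean of 217 counts per ethanol and 177 counts per saline library.

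Whether *Spry4* separated the groups depended on the scaling. In plain CPM, counts over the library total, ethanol 57 held 5.84 CPM and the highest saline library, saline 38, held 5.71 CPM. On that scale *Spry4* was the 1 gene of the 10 whose groups did not overlap, against 1.7% of tested genes entirely higher and 0.334% entirely lower in ethanol. A ratio to another gene of the same library needs no scaling. Per exon length, *Spry4* ran at 0.109, 0.0755, 0.120, 0.0974 and 0.0963 of *Spry1* in ethanol 51, 57, 59, 60 and 62. It ran at 0.0593, 0.0718, 0.0763, 0.0764 and 0.0583 of *Spry1* in saline 32, 34, 36, 38 and 39. Ethanol 57 again fell among the saline libraries.

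*Spry2*, which binds the ubiquitin ligase CBL and is widely used as a readout of FGF signalling, showed the same arrangement. It was at 16.4, 11.5, 16.6, 16.3 and 17.8 CPM in ethanol 51, 57, 59, 60 and 62, and at 11.7, 10.9, 14.9, 9.60 and 10.1 CPM in saline 32, 34, 36, 38 and 39. Ethanol 57 lay within the saline range, and the other 4 ethanol libraries lay above it. The means were 15.7 ± 2.45 CPM in ethanol and 11.4 ± 2.07 CPM in saline (SD, n = 5 each), and the log2 fold change was 0.46 ± 0.13 (SE).

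*Spry1* is the most abundant Sprouty transcript here and, in mouse muscle, is known for keeping satellite cells quiescent. It was at 48.8, 44.5, 45.8, 61.2 and 48.4 CPM in ethanol 51, 57, 59, 60 and 62, and at 39.2, 39.6, 44.5, 44.9 and 47.4 CPM in saline 32, 34, 36, 38 and 39. The difference was small (log2 fold change 0.20 ± 0.09, SE), and without ethanol 60 it was 0.12. The 8 satellite cell markers summed to 58.2 to 62.8 CPM in ethanol and 52.0 to 57.5 CPM in saline, with none at 0 and 5 of 8 higher in ethanol. These satellite cell sums did not overlap between the groups. The mean log2 CPM of the same 8 markers did overlap, at 1.59 to 1.83 in ethanol and 1.48 to 1.73 in saline. The part of satellite cells in the *Spry1* values was not tested.

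Endothelial cells express Sprouty genes, so endothelial markers are set beside *Spry2*. The mean of 10 endothelial markers was 5.62, 5.44, 5.47, 5.75 and 5.68 log2 CPM in ethanol 51, 57, 59, 60 and 62. It was 5.45, 5.30, 5.69, 5.34 and 5.36 log2 CPM in saline 32, 34, 36, 38 and 39. Saline 36 held both the highest saline endothelial mean and the highest saline *Spry2*, and ethanol 57 both the lowest ethanol endothelial mean and the lowest ethanol *Spry2*. Ethanol 59 had an endothelial mean close to those of ethanol 57 and saline 32 but *Spry2* at 16.6 CPM. Of the 10 markers, 8 were higher in ethanol, 0 passed FDR 0.05, none was at 0, and their sums ranged from 510.3 to 658 CPM in ethanol and from 471 to 626 CPM in saline. Markers of some other cell types were also more often higher than lower in ethanol. The higher ones were 9 of 10 for fibroblasts, 9 of 10 for fat cells and 7 of 8 for macrophages. They were 8 of 10 for Schwann cells and 7 of 10 for pericytes and smooth muscle. Neutrophil markers went the other way, with 1 of 6 tested genes higher, as did the 1 tested red blood cell marker. None of these passed FDR 0.05, and the sum of each of these lists overlapped between the groups. The part of any of these markers in the Sprouty values was not tested.

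The Sprouty-related genes were level. *Spred1*, whose product brings the RAS inhibitor neurofibromin to the membrane, averaged 13.3 ± 1.5 CPM in ethanol and 13.2 ± 1.5 CPM in saline (SD, n = 5 each). *Spred2* averaged 7.48 ± 0.35 CPM in ethanol and 7.22 ± 1.04 CPM in saline. Their log2 fold changes were 0.01 ± 0.10 and 0.05 ± 0.11 (SE), and both signs depended on single libraries, at -0.06 for *Spred1* without ethanol 60 and -0.02 for *Spred2* without saline 34. The groups overlapped throughout.

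Among the phosphatases, *Dusp6* encodes the cytoplasmic phosphatase that is selective for ERK. It was at 19.2, 12.3, 15.6, 18.6 and 18.1 CPM in ethanol 51, 57, 59, 60 and 62, and at 12.0, 9.69, 13.2, 15.1 and 13.4 CPM in saline 32, 34, 36, 38 and 39. As for *Spry4* and *Spry2*, only ethanol 57 came within the saline range. How common this arrangement is among all tested genes was not counted. The means were 16.7 ± 2.83 CPM in ethanol and 12.7 ± 1.99 CPM in saline (SD, n = 5 each), and the log2 fold change was 0.40 ± 0.13 (SE).

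*Dusp1* encodes a nuclear phosphatase that acts on p38 and JNK as well as ERK, and is the stress-responsive member of the family. It was at 172, 118, 149, 157 and 138 CPM in ethanol 51, 57, 59, 60 and 62, and at 63.4, 74.4, 118, 146 and 141 CPM in saline 32, 34, 36, 38 and 39. The saline mice split widely, with saline 32 and saline 34 low and the other 3 within the ethanol range. The coefficient of variation was 14% in ethanol and 34.9% in saline. The log2 fold change was 0.43 ± 0.23 (SE), or 0.29 without saline 32 and 0.78 without saline 38 and saline 39.

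The mean of 39 ERK-responsive factors and early targets lay between 4.10 and 4.44 log2 CPM in the ethanol libraries. In saline 38 and saline 39 it was higher, at 4.78 and 4.6 log2 CPM, and in the other saline libraries it lay between 4.16 and 4.43 log2 CPM. Within each group, *Dusp1* put the 5 libraries in the same order as that list. Between groups its level differed at like list means, since ethanol 59 and ethanol 62 held 149 and 138 CPM at list means of 4.31 and 4.19 log2 CPM, while saline 32 and saline 34 held 63.4 and 74.4 CPM at 4.16 and 4.17 log2 CPM. The mean of 10 heat shock genes, of which 9 were lower in ethanol and 0 passed FDR 0.05 in edgeR (5 lower at an unadjusted p under 0.05, as were 5.91% of all tested genes), was 6.89 to 7.06 log2 CPM in ethanol. It was 7.70 and 7.63 log2 CPM in saline 38 and saline 39, and 6.95 to 7.05 log2 CPM in saline 32, 34 and 36. The part of either list in the *Dusp1* values was not tested.

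*Dusp4*, a nuclear phosphatase induced by ERK, ran the other way. It was at 6.88, 3.38, 3.64, 7.0 and 6.71 CPM in ethanol 51, 57, 59, 60 and 62, and at 9.84, 5.61, 8.93, 7.33 and 6.01 CPM in saline 32, 34, 36, 38 and 39. Ethanol 57 and ethanol 59 lay below every saline library, and the other 3 ethanol libraries lay within the saline range. The log2 fold change was -0.45 ± 0.23 (SE).

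*Dusp5*, the nuclear ERK-specific phosphatase whose start window carries the paired CArG boxes, was near the limit of detection. It had 15, 7, 11, 5 and 18 counts in ethanol 51, 57, 59, 60 and 62, and 20, 8, 11, 26 and 22 counts in saline 32, 34, 36, 38 and 39. A difference was not resolved at this depth. The log2 fold change of -0.21 ± 0.38 (SE) turned to 0.03 without saline 38.

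*Errfi1*, the EGF receptor inhibitor, had the widest absolute spread of the 10 genes in saline (SD 71.3 CPM), whereas in ethanol *Dusp1* did (SD 20.5 CPM, against 18.3 CPM for *Errfi1*). *Errfi1* was at 120.5, 92.8, 99.7, 138 and 103 CPM in ethanol 51, 57, 59, 60 and 62, and at 94.8, 90.9, 264, 176 and 134 CPM in saline 32, 34, 36, 38 and 39. Saline 36 and saline 38 stood above every ethanol library, while saline 32 and saline 34 were among the lowest of all. The coefficient of variation was 16.5% in ethanol and 46.9% in saline. The log2 fold change was -0.46 ± 0.28 (SE), and without saline 36 it was -0.17.

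The mean of glucocorticoid receptor target genes was highest in saline 36 and saline 38, as was *Errfi1*. Over 21 such genes the mean was 7.75, 7.08, 6.96, 7.69 and 7.29 log2 CPM in ethanol 51, 57, 59, 60 and 62. It was 7.57, 7.43, 8.66, 7.94 and 7.48 log2 CPM in saline 32, 34, 36, 38 and 39. Within ethanol, mice 51 and 60 had the highest list means and the highest *Errfi1*. The orders differed elsewhere, since saline 39 had more *Errfi1* than saline 32 and ethanol 51 but a lower list mean than either. Of the 21 genes, 19 were lower in ethanol (49.8% of all tested genes were), 0 passed FDR 0.05 in edgeR and DESeq2, and 3 were lower at an unadjusted edgeR p under 0.05 (5.91% of all tested genes were). The part of glucocorticoid signalling in the *Errfi1* values was not tested.

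**Figure D2:**
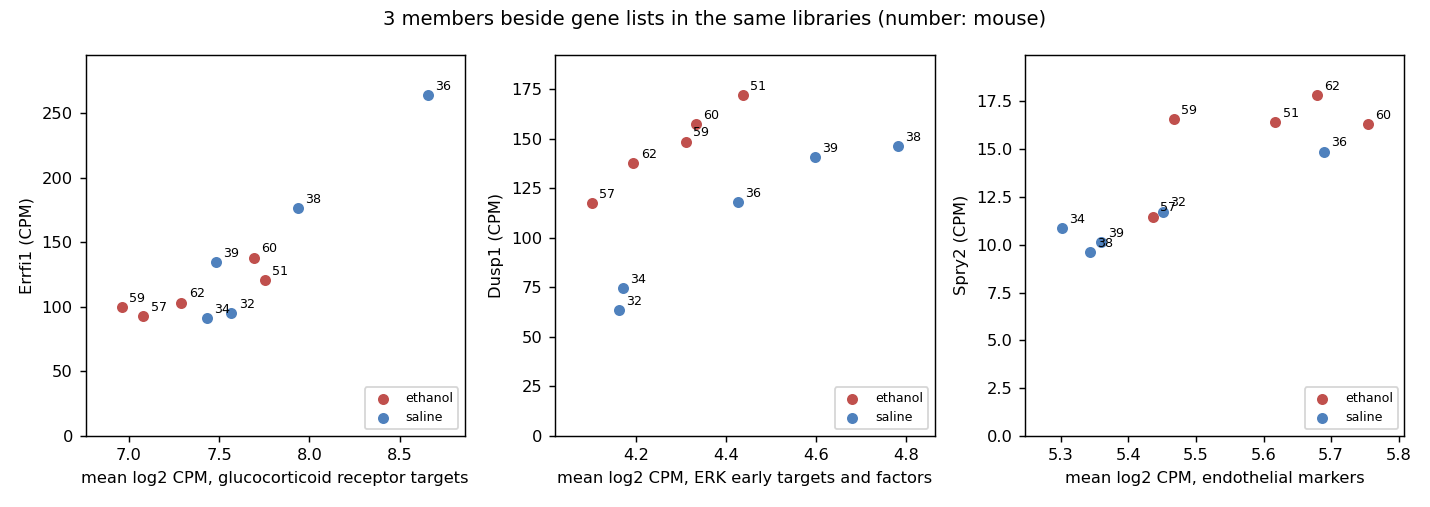
Level of *Errfi1*, *Dusp1* and *Spry2* in CPM (y axes, from 0) against the mean log2 CPM of glucocorticoid receptor targets, of ERK early targets and factors, and of endothelial markers (x axes), with 1 point per mouse. Saline 36 is the highest point for *Errfi1* and its list; for *Dusp1*, saline 32 and saline 34 lie at 63.4 and 74.4 CPM, below ethanol libraries with similar list means.

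*Dusp1* and *Errfi1*, the most abundant of the 10 genes and the pair with TGACGTCA before a start, stood in different proportion in the groups. Per exon length, the ratio of *Dusp1* to *Errfi1* counts was 1.54, 1.37, 1.61, 1.24 and 1.44 in ethanol 51, 57, 59, 60 and 62. It was 0.724, 0.886, 0.484, 0.899 and 1.13 in saline 32, 34, 36, 38 and 39. Every ethanol library had the higher ratio, and *Dusp1* exceeded *Errfi1* in 5 of 5 ethanol and 1 of 5 saline libraries. The ratio does not depend on library scaling, but how many libraries exceed 1 depends on the exon lengths used. The difference in this ratio was noticed in the values themselves and is given without a test. How many other pairs of genes have ratios that separate the groups was not counted.

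**Figure D3:**
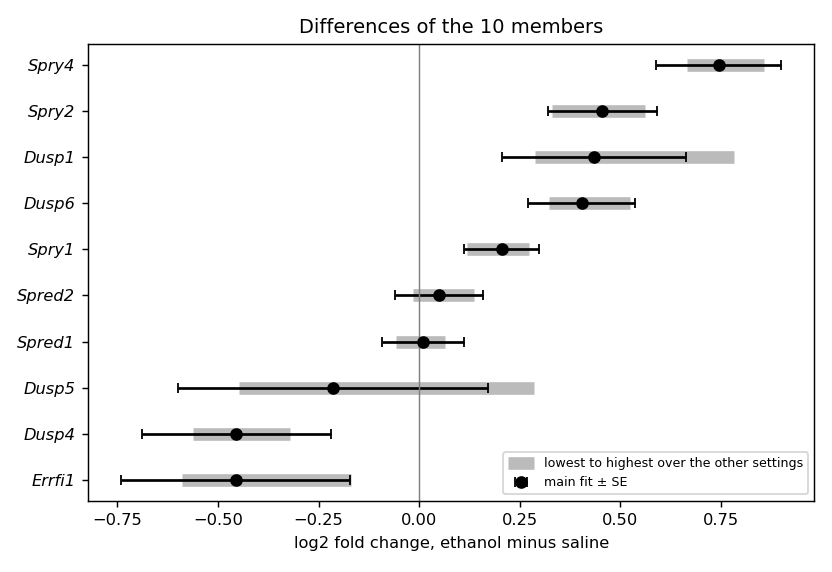
Log2 fold change of each gene, ethanol minus saline (x axis), as the fitted value ± SE (points) and its lowest to highest value over the other analysis settings (grey bars). The bars of *Spry4*, *Spry2*, *Dusp1*, *Dusp6* and *Spry1* stay above 0, those of *Dusp4* and *Errfi1* stay below 0, and those of *Spred1*, *Spred2* and *Dusp5* cross it.

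Expressed per kilobase of exon (GENCODE M21), the genes covered a wide range of levels. *Dusp1* averaged 44.3 ± 6.19 CPM per kb in ethanol and 32.8 ± 11.5 in saline, and *Errfi1* averaged 30.9 ± 5.10 CPM per kb in ethanol and 42.4 ± 19.9 in saline (SD, n = 5 each). These levels overlapped between the genes in each group. *Spry1* followed at 17.1 ± 2.28 CPM per kb in ethanol and 14.8 ± 1.23 in saline, below *Dusp1* and *Errfi1* of the same library in all 10. *Spry2* (7.53 ± 1.18 CPM per kb in ethanol, 5.48 ± 0.99 in saline) and *Dusp6* (5.35 ± 0.90 and 4.04 ± 0.63) came next, with overlapping ranges. *Dusp4*, *Spred1*, *Spred2* and *Spry4* had lower means, between 1.62 and 2.02 CPM per kb in ethanol and between 1.02 and 2.75 in saline. *Spry4* ran from 1.16 to 2.05 CPM per kb in ethanol, and its 0.800 to 1.18 CPM per kb in saline lay below every saline value of the other 3 (lowest 1.26, *Spred2*). *Dusp5* was lowest, at 0.164 ± 0.071 CPM per kb in ethanol and 0.195 ± 0.096 in saline.

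Apart from *Spry4*, the spread between mice of a group was not used to choose the genes, so their correlation within groups was tested. Whether *Spry4* separated the groups depends on its spread too, so pairs with *Spry4* reuse values behind the choice. Log2 CPM was centred on the group mean, and the 45 pairs were compared over 10 libraries by exact permutation within groups, two-sided. The correlation was positive for 42 pairs, with a median Pearson r of 0.43, and 9 pairs had an unadjusted p under 0.05. Those 9 take in *Spry4* with *Dusp1* and *Spry4* with *Errfi1*, which cannot serve as support. Counts without the pairs of *Spry4* were not made. After Benjamini-Hochberg adjustment over the 45, 0 pairs passed. The same counts were not made for pairs of other genes. The smallest p was that of *Dusp1* with *Dusp6* (Pearson r = 0.716, exact p = 0.01, adjusted p = 0.205; Spearman rho = 0.741, exact p = 0.0075, adjusted p = 0.139). The r of this pair was 0.812 without saline 32 and saline 34, the libraries farthest from the median of *Dusp1*.

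*Spry1* ran with *Dusp1* (r = 0.643, exact permutation p = 0.0249, adjusted p = 0.205; rho = 0.804, p = 0.0116, adjusted p = 0.139) and with *Errfi1* (r = 0.603, exact permutation p = 0.0287, adjusted p = 0.205; rho = 0.807, p = 0.0109, adjusted p = 0.139). Without ethanol 60 and saline 39 these r values were 0.918 and 0.867. *Dusp1* with *Errfi1* had a Pearson r of 0.718 (exact permutation p = 0.119, adjusted p = 0.314; rho = 0.832, p = 0.0294, adjusted p = 0.185). Its r was 0.03 without saline 32 and saline 34, 0.885 without saline 36 and 0.904 without saline 38 and saline 39, so its size depended on which saline libraries were kept. The r of *Spry2* also depended on single libraries. With *Dusp1* it was 0.03, but -0.912 without ethanol 57 and saline 36 and 0.731 without saline 38 and saline 39. With *Spry4* it was 0.529, given as a description because the list was chosen on *Spry4*, and it turned to -0.908 without ethanol 57 and saline 36. With *Dusp4* it was 0.626 (exact permutation p = 0.0479, adjusted p = 0.205; rho = 0.403, p = 0.273, adjusted p = 0.548), or 0.316 without ethanol 57 and saline 36.

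**Figure D4:**
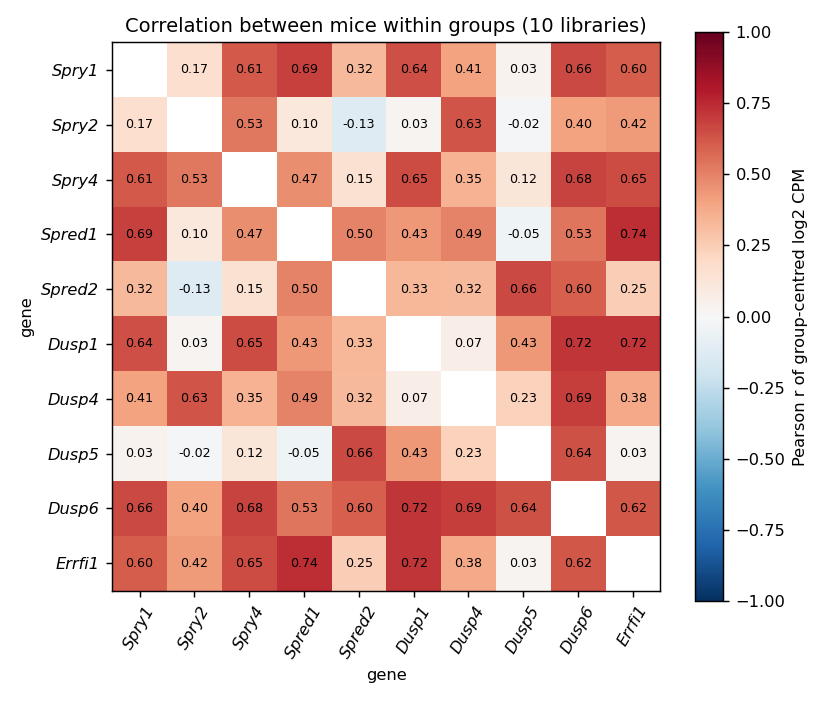
Pearson r between the 10 feedback genes over 10 libraries, from log2 CPM centred on the mean of each group (both axes list the genes; red is positive, blue negative). Most cells are red, from -0.13 for *Spry2* with *Spred2* to 0.74 for *Spred1* with *Errfi1*.

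Among 9097 other genes at a mean of at least 5 CPM, those most like *Spry4* within groups over the 10 libraries were *Apold1* (r = 0.959), *Cbr2* (0.918), *Cpsf2* (0.900), *Trit1* (0.897) and *Zc3h6* (0.889), given as a description. *Apold1* encodes an early response protein of endothelium. It was at 27.5, 11.4, 33.7, 31.0 and 21.1 CPM in ethanol 51, 57, 59, 60 and 62, and at 7.08, 12.8, 16.2, 18.9 and 14.4 CPM in saline 32, 34, 36, 38 and 39. Ethanol 57 was again the low ethanol library, and its log2 fold change of 0.84 ± 0.32 (SE) did not pass (edgeR FDR = 0.372). Of the feedback genes, *Dusp6*, *Errfi1* and *Dusp1* ranked 203, 272 and 279 by likeness to *Spry4*. The others at a mean of at least 5 CPM ranked from 423 (*Spry1*) to 3738 (*Spred2*).

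The genes most like *Dusp1* were *Ppp1r37* (r = 0.943), *Slc9a8* (0.934), *Sec31a* (0.931), *Ccdc57* (0.909) and *Trib1* (0.901), the last of which is in the list of early targets. Those most like *Errfi1* were *Phf2* (0.965), *Copa* (0.963), *Usp1* (0.960), *Rbm28* (0.959) and *Tgm2* (0.958). Feedback genes ranked from 174 (*Errfi1*) to 4827 (*Spry2*) by likeness to *Dusp1*. By likeness to *Errfi1* they ranked from 798 (*Spred1*, r = 0.736) and 908 (*Dusp1*, r = 0.718) to 3692 (*Spred2*). *Phf2*, a histone demethylase gene, was highest in saline 36 at 111 CPM, against 77.4 to 97.1 CPM in the other saline libraries.

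The rest of the pathway was surveyed through 148 tested genes in 6 lists. None passed FDR 0.05 with edgeR or limma-voom, nor with DESeq2, which gave 140 of them an adjusted p, and 11 were higher and 13 lower in ethanol at an unadjusted edgeR p under 0.05, where 6.22% and 5.91% of all tested genes were. By sign alone 69 were higher and 79 lower, at a median log2 fold change of -0.02.

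Of 22 tested genes in the ligand list 15 were higher, with a median log2 fold change of 0.10. The 15 take in *Fgf11* (0.22 ± 0.19, SE) and *Fgf13* (0.07 ± 0.09), FGF family genes whose products are not secreted ligands. The smallest p values were those of *Pdgfd* (-0.51 ± 0.19, SE) and *Pdgfb* (0.24 ± 0.09), which encode platelet-derived growth factors, and *Fgf7* (0.27 ± 0.12), a fibroblast growth factor of stroma. Their edgeR FDR values were 0.341, 0.353 and 0.400. *Fgf2*, *Hgf*, *Nrg1*, *Nrg2*, *Areg*, *Ereg* and *Btc* had too few counts to be tested.

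Of 19 tested receptor genes 13 were higher (median log2 fold change 0.10). *Kdr*, the main VEGF receptor of endothelium, averaged 50.04 ± 8.77 CPM in ethanol and 36.4 ± 6.27 CPM in saline (SD, n = 5 each), which on the log2 scale is a difference of 0.46 ± 0.14 (SE, FDR by edgeR 0.287). *Ntrk2*, a neurotrophin receptor (0.51 ± 0.18, FDR = 0.340), and *Tie1*, an endothelial receptor (0.20 ± 0.07, FDR = 0.341), had the next smallest p. *Ntrk2* was 0.31 without saline 36 and ethanol 60. *Kdr* and *Tie1* are also in the endothelial marker list.

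The cascade itself moved little. Of 32 adaptor, RAS, RAF, MEK, ERK and RSK pathway genes 14 were higher and 18 lower (median log2 fold change -0.02). The smallest p values were those of the RAS-like genes *Rras2* (-0.19 ± 0.08, SE) and *Mras* (0.40 ± 0.16) and of *Mknk2*, a kinase downstream of ERK (-0.28 ± 0.13), at edgeR FDR values of 0.373, 0.373 and 0.410.

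Other inhibitors of the pathway showed no common direction with the 10 genes, at 7 higher and 14 lower of 21 (median log2 fold change -0.07). *Rasa2*, a RAS GTPase-activating protein gene, was at -0.49 ± 0.15 (SE, edgeR FDR = 0.306), *Socs6* at -0.21 ± 0.08 (FDR = 0.364) and the inducible nuclear phosphatase gene *Dusp2* at -0.46 ± 0.18 (FDR = 0.373), the last at a mean of only 0.858 CPM in ethanol and 1.17 CPM in saline. *Dusp2* was -0.25 after thinning. Of 15 atypical phosphatase genes 5 were higher and 10 lower (median -0.06), led by *Styx* (-0.19 ± 0.10), *Dupd1* (0.27 ± 0.15) and *Dusp12* (-0.20 ± 0.13), with edgeR FDR values of 0.466, 0.488 and 0.532. *Spry3*, *Dusp9* and *Styxl1* had too few counts.

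Of 39 ERK-responsive factors and early targets 15 were higher and 24 lower (median log2 fold change -0.11). At an unadjusted edgeR p under 0.05, 4 were higher and 7 lower, where 6.22% and 5.91% of all tested genes were. The largest differences were those of *Fos* (-1.43 ± 0.49, SE), *Atf3* (-1.39 ± 0.38) and *Maff* (-1.14 ± 0.34), and the largest rise was that of *Egr1* (0.73 ± 0.51). The mean of this list was higher in saline 38 and saline 39 than in every ethanol library. In the other saline libraries it lay within the ethanol range. The part of saline 38 and saline 39 in the differences of *Fos*, *Atf3* and *Maff* was not tested. The 3 genes with the smallest p follow. *Ccnd1*, the cyclin D1 gene, averaged 4.51 ± 0.77 CPM in ethanol and 2.92 ± 0.64 CPM in saline (SD, n = 5 each, log2 fold change 0.63 ± 0.17, SE, edgeR FDR = 0.287), with every ethanol above every saline library. *Klf6*, an early response factor, averaged 81.4 ± 5.05 CPM in ethanol and 103 ± 15.04 CPM in saline (-0.34 ± 0.09, edgeR FDR = 0.287), with every ethanol below every saline library. *Elk3*, a ternary complex factor, was at 0.32 ± 0.09 (edgeR FDR = 0.287).

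**Figure D5:**
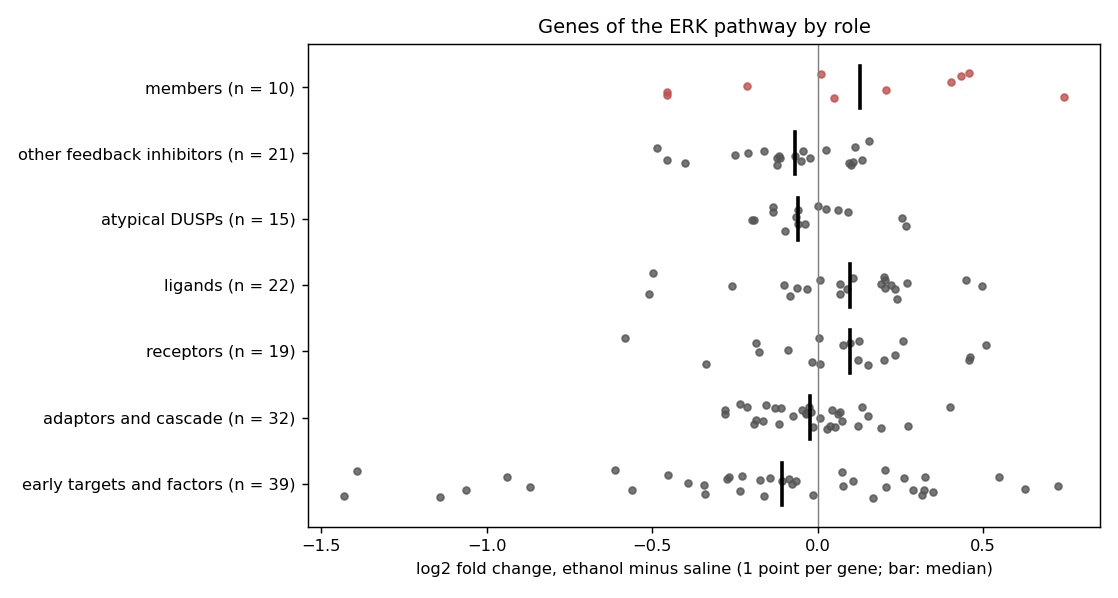
Log2 fold change, ethanol minus saline (x axis), of the 10 feedback genes (red) and of 148 other pathway genes by role (grey), with 1 point per gene and a bar at the median. The medians of the lists lie between -0.11 for early targets and 0.13 for the 10 feedback genes.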

How the data were processed

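Poly(A) RNA of 10 muscles, 5 per group, was sequenced from a single end with 100-base reads, per the labels' protocols. The authors deposited whole-number read counts per gene symbol, used here as deposited. The submitters' processing notes name mm10, TopHat2 and DESeq2 1.6.3 without their roles. How reads were counted, and against which annotation and strand, is not given in the sources used here, and the kit in the labels does not mark strand, so reads of overlapping genes could be shared. In 27 rows a date replaced the symbol; they stayed in the totals and no list uses them. The members and lists were chosen with earlier results of these data known.

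Genes were kept by filterByExpr (minimum count 10, minimum total 15), scaled by TMM and fitted with edgeR 4.0.16 (robust quasi-likelihood F test, ethanol minus saline, Benjamini-Hochberg over 13180 genes) in R 4.3.3, with limma 3.58.1 and DESeq2 1.42.0 as alternatives. Standard errors are the log2 fold change over the square root of F. Log2 CPM carries a prior count of 2. The fits were tested on simulated negative binomial counts, with 200 genes changed and the dispersions that edgeR estimated from these libraries. DESeq2 at its defaults made more false calls there than its threshold allows and more than edgeR or limma-voom. This limits the weight of its calls here. Because the dispersions came from edgeR, such a simulation cannot settle whether the 55 DESeq2 calls are false. Libraries of a group differed beyond sampling noise (chi-square per degree of freedom 13.9 to 98.7), so each counted as 1 replicate. Animal numbers are not shared between groups and no batch is labelled. P-values of the group comparison weigh the difference between groups against the spread between these mice.

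Named pathway genes are, per list, the 3 with the smallest p, since none passed. Likeness was Pearson r of group-centred log2 CPM. Alternatives were other scalings, filters and tests, thinning to the smallest library and leaving out libraries.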

Additional observations from a re-analysis of the deposited data

Results flagged for a closer look

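Within a group of 5, 1 library stood far from the other 4 in 6 of the 68 gene and group combinations checked, where chance flags about 1 in 20. The measure is the gap to the nearest library over the range of the group. *Spry1* in ethanol 60 had a value of 0.744 (61.2 CPM, against 44.5 to 48.8 CPM in the other ethanol libraries). *Spry2* in ethanol 57 had a value of 0.764 (11.5 CPM, against 16.3 to 17.8 CPM). Among the other named genes, the values were 0.801 for *Tie1* in ethanol 60 (58.2 CPM, against 49.5 to 51.2 CPM), 0.835 for *Mt1*, a metallothionein gene of the glucocorticoid list, in ethanol 51 (149 CPM, against 68.9 to 82.2 CPM), 0.742 for *Pdgfd* in saline 39 (1.62 CPM, against 2.79 to 3.20 CPM) and 0.737 for the zinc transporter gene *Slc39a14*, of the glucocorticoid list, in saline 36 (278 CPM, against 28.2 to 93.9 CPM).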

How the results depend on the processing

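No paired analysis was possible because the groups share no animal number. The number of genes passing FDR 0.05 was 0 in the main analysis and 55 with DESeq2, and ranged from 0 to 1 with a library left out: *Kcne4* without ethanol 57 and *Rgcc* without saline 34, both named after their values were seen. The other pathway genes had 0 calls under all 20 alternatives. Of the 10 feedback genes, 0 separated the groups with TMM scaling and 1 (*Spry4*) with total count scaling. With a library left out, 0 to 3 did. The 3 were *Spry4*, *Spry2* and *Dusp6* without ethanol 57, the only library through which their groups overlapped. Their separation there follows from leaving out that library and is no support for a difference. Without ethanol 57, 1.92% of tested genes were entirely higher and 1.3% entirely lower in ethanol. That share leaves out the same library for every gene, whichever library causes its overlap, so it is not a like comparison. The overlap count under other settings was added after the data were seen. The log2 fold change of *Spry4* ranged from 0.67 to 0.86, of *Spry2* from 0.33 to 0.56 and of *Dusp6* from 0.32 to 0.53. *Spred1* changed sign in 7 and *Spred2* in 3 of 20 settings, and *Dusp5* in 2 of 18; *Dusp5* was not kept at a mean of 5 CPM or after thinning. No correlation passed its adjustment under total count scaling, without saline 36, or without saline 38 and saline 39. Ethanol libraries were shallower, and *Dusp5* rested on a mean of only 11.2 counts per ethanol and 17.4 counts per saline library.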
